A study of Mus musculus with 10 samples.

Results

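The 32 genes described here build fatty acids or modify their carbon chains: enzymes that supply acetyl-CoA and NADPH, the synthases and carboxylases, elongases and their partner enzymes, desaturases, acyl-CoA synthetases and regulators of their transcription. They were chosen by symbol, and all 32 were found among 24470 entries of the count table. RNA was measured in 10 cultured testes of C57BL/6 mouse embryos taken at E12.5. Each of 5 embryos, called M1 to M5, gave 1 gonad to 75 µM GPI and its other gonad to the solvent DMSO, called vehicle, and culture lasted 48 h. GPI is a small-molecule inhibitor of glycogen phosphorylase that acts on all 3 phosphorylases, and it was given to whole gonads in culture. The gonads were dissected off the mesonephros after culture and were extracted whole. Total counts ran from 10203679 to 15590223 in vehicle libraries and from 11025409 to 15635322 in GPI libraries.

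Cells make palmitate from acetyl-CoA, which ATP citrate lyase releases from citrate in the cytosol, by way of malonyl-CoA and the multidomain fatty acid synthase. Elongases of the endoplasmic reticulum then add carbons in a cycle completed by a ketoreductase, dehydratases and a reductase, and desaturases place double bonds. Much of the pathway is transcribed under SREBP and ChREBP factors, and in fetal testis its products serve membranes and lipid stores, including those of steroid-making Leydig cells.

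Of 31 tested members, 26 had a positive log2 fold change of GPI against vehicle, and of 25 other tested genes of the pathway 20 did. Of the members, 18 were called higher and 1 lower in edgeR, whose quasi-likelihood p-values were adjusted by the Benjamini-Hochberg method and held to a nominal FDR of 0.05, against 11.1% of all 13941 tested genes called higher and 11.9% called lower. Their median log2 fold change was 0.60, against 0.019 over all tested genes. Elovl3 did not pass the filter on low counts. Thrsp and Elovl7 reached the count cutoff in every GPI library but not in every vehicle library, and without these 2 members 17 of 29 were called higher. Normalized counts, scaled by TMM to the mean library, summed over the 32 members to 24399, 25797, 26845, 26087 and 29250.4 in the vehicle gonads of M1 to M5 and to 32569, 43807, 45310.2, 52965 and 46303 in the GPI gonads. Every GPI sum was above every vehicle sum, and the M1 gonad had the lowest GPI sum. In whole gonads, fewer cells of a type and less RNA per cell cannot be told apart, and markers of Leydig, Sertoli, germ, endothelial, blood and macrophage cells also moved, with values given after the members. Their part in the result was not tested.

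**Figure D1:**
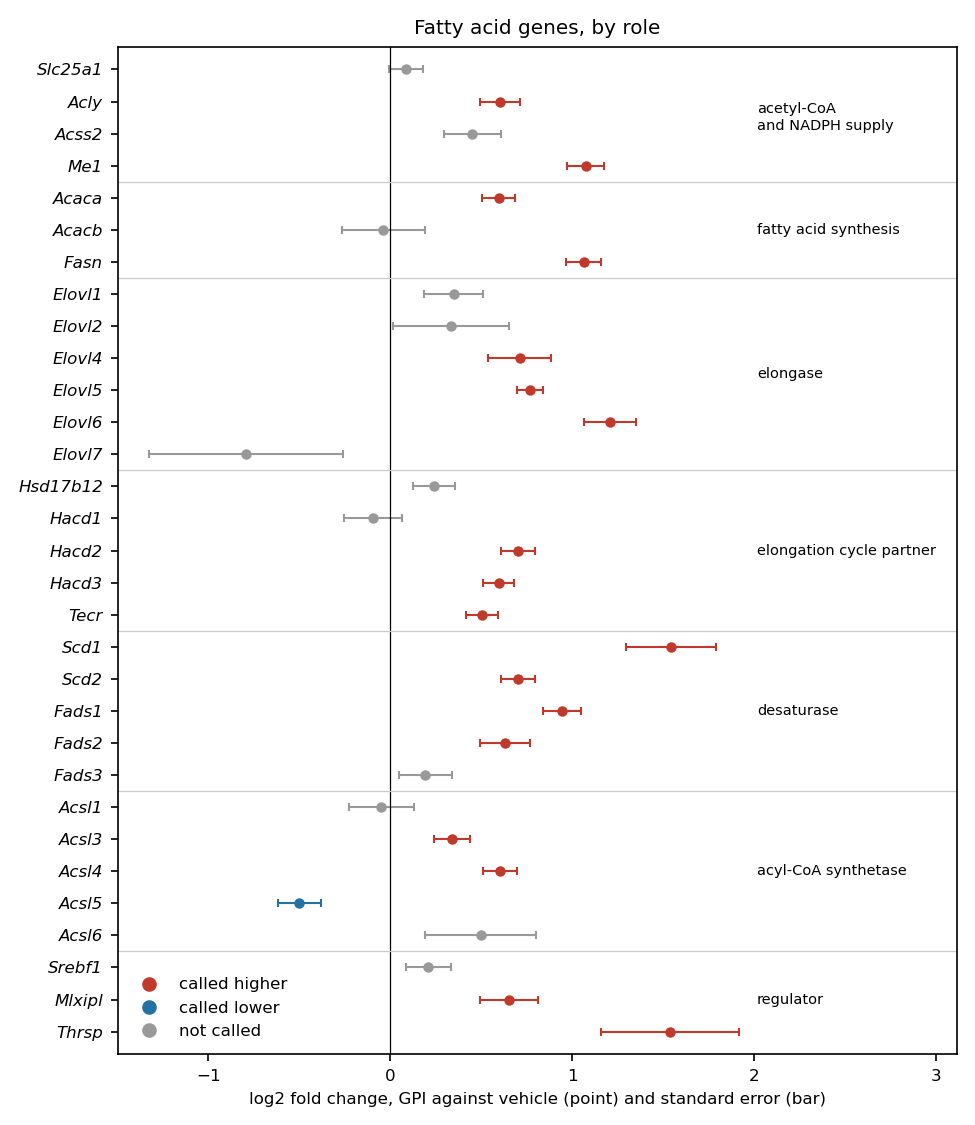
Log2 fold change of GPI against vehicle for the 31 tested members, grouped by role; points are fitted values, bars are standard errors (n = 5 embryos), red marks genes called higher, blue lower and grey not called. The 18 red points lie between 0.34 (Acsl3) and 1.54 (Scd1), and the single blue point is Acsl5 at -0.50.

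Acetyl-CoA and NADPH supply comprised 4 genes, of which Acly and Me1 rose. Me1, the cytosolic malic enzyme that yields NADPH, lies at chr9:86581363-86695914 of mm10. Its normalized counts were 1665, 2944, 2189, 2477 and 2740.4 in vehicle gonads of M1 to M5 and 3744, 4489, 5269, 6519 and 5229 in their GPI counterparts. The lowest GPI value exceeded the highest vehicle value. Me1 was 2.11-fold higher, a log2 fold change of 1.07 ± 0.10 (SE, n = 5 pairs), by edgeR quasi-likelihood with Benjamini-Hochberg adjustment (adjusted p = 3.80e-06). The span of Me1 overlaps that of A330041J22Rik on the opposite strand, and counting ignored strand. Whether exons of the pair overlap, so that their reads could be confused, was not tested. Of the 50-base words of Me1, 32.8% also occur in other transcripts, of which Gm7049 shares the most. Its count is less certain for that reason, by an amount that was not measured. The spans of Acsl3, Acss2, Elovl1, Elovl3 and Srebf1 also overlap those of other genes (Utp14b, Acss2os, Cdc20, Pitx3 and Rai1 in that order). The spans of Acly, Scd2, Fads1 and Srebf1 overlap microRNA genes. The share of 50-base words found in other transcripts was 8.31% for Acss2 and 4.05% for Acsl3. Acly, ATP citrate lyase, had 551, 637, 549, 571 and 699 normalized counts with vehicle and 621, 972, 828, 1174 and 1054 with GPI. The GPI gonad of M1 stayed within the vehicle range, while the other 4 exceeded it. The log2 fold change was 0.60 ± 0.11 (SE; edgeR quasi-likelihood with Benjamini-Hochberg adjustment, adjusted p = 0.00103), with a higher count in 5 of 5 pairs. Slc25a1, the mitochondrial citrate carrier, and Acss2, which makes acetyl-CoA from acetate, did not pass the test. Acss2 was higher in 5 of 5 pairs with a log2 fold change of 0.45 ± 0.16 (edgeR quasi-likelihood with Benjamini-Hochberg adjustment, adjusted p = 0.0528), and passed with limma-voom alone among the alternatives run (adjusted p = 0.0482, range over alternatives 0.0482 to 0.17).

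RefSeq start sites gave promoter windows for 28 of the 32 members on GRCm38.p6, and the bases before the start are shown for the 4 members with the smallest p among those called that had a window, a choice made after their values were known. For Me1, on the minus strand, 1 window precedes the annotated gene start (chr9:86695915-86696164) and the other lies inside the gene (chr9:86687278-86687527). Capitals mark matches on either strand to the sterol response core TCACNCCAC, the E-box CACGTG, the NF-Y box CCAAT or the GC box GGGCGG.
Me1, upstream start: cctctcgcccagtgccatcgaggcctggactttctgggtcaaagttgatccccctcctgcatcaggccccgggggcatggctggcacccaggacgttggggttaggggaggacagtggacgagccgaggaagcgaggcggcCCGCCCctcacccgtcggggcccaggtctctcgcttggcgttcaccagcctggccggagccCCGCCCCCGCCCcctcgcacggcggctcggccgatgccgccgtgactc
Me1, internal start: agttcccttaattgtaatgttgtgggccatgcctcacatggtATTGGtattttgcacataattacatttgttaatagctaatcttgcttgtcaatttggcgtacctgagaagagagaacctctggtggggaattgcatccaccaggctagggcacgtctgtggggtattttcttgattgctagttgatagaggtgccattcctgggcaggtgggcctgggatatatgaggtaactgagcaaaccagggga
The bases shown for the upstream start held 3 GC boxes, 109, 48 and 42 bases before the start, and those for the internal start held 1 NF-Y box.

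Fatty acid synthesis itself rests on Fasn and the acetyl-CoA carboxylases Acaca and Acacb. Fasn, at chr11:120805958-120824547, had normalized counts of 764, 964, 835, 839 and 992 in vehicle gonads and 1188, 1985, 1832, 2163 and 2167 in GPI gonads of M1 to M5. No GPI value fell within the vehicle range, and M1 was again the lowest of the GPI gonads. The gene was 2.09-fold higher, at a log2 fold change of 1.06 ± 0.096 (SE; edgeR quasi-likelihood with Benjamini-Hochberg adjustment, adjusted p = 2.96e-06). Acaca, the cytosolic carboxylase that makes malonyl-CoA for synthesis, had 536, 568, 624, 566 and 711 with vehicle and 677, 932, 944, 1006 and 1002 with GPI. Except in M1, its GPI values were above every vehicle value. Its log2 fold change was 0.60 ± 0.091 (SE; edgeR quasi-likelihood with Benjamini-Hochberg adjustment, adjusted p = 2.93e-04). Of the 50-base words of Acaca, 52.6% recur in the related transcript Gm5182, so its count is less certain, by an amount that was not measured. Acacb, the mitochondrial-membrane carboxylase linked to control of oxidation, had 50.9, 79.9, 73.7, 52.8 and 51.8 normalized counts with vehicle and 68.3, 56.8, 55.2, 51.6 and 66.5 with GPI. These groups overlapped, 2 pairs being higher and 3 lower, and the log2 fold change of -0.037 ± 0.23 did not pass (edgeR quasi-likelihood with Benjamini-Hochberg adjustment, adjusted p = 0.933).
The bases before the Fasn start, on the minus strand at chr11:120824548-120824797, are given with the same capitals.
Fasn: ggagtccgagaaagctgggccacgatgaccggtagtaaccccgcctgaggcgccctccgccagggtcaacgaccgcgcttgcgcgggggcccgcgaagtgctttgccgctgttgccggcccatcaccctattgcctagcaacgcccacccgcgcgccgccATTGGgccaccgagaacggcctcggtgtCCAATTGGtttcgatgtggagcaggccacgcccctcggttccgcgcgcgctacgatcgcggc
They held 3 NF-Y boxes, 90, 62 and 59 bases before the start, of which the last 2 overlap.

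Among the 7 elongases, Elovl4, Elovl5 and Elovl6 rose. Elovl6 extends saturated chains from palmitate. Its normalized counts were 982, 1624, 1699.6, 1008 and 1830.0 in the vehicle gonads and 1724, 2842, 3942, 4199 and 4088 in the GPI gonads of M1 to M5. Only the M1 gonad among the GPI samples lay within the vehicle range. The log2 fold change of 1.21 ± 0.14 (SE) was the largest of the elongases tested (edgeR quasi-likelihood with Benjamini-Hochberg adjustment, adjusted p = 3.41e-05). Elovl5, which extends polyunsaturated chains, had 1098, 1349.6, 1306, 1337 and 1403 with vehicle and 1819.9, 2067, 2313, 2515 and 2393 with GPI. The groups were apart, and the log2 ratios of the 5 pairs ran from 0.61 in M2 to 0.91 in M4. Elovl5 had a log2 fold change of 0.77 ± 0.072 (SE; edgeR quasi-likelihood with Benjamini-Hochberg adjustment, adjusted p = 4.11e-06). Elovl4, an elongase of very long chains, was scarce, with 80.8, 66.8, 67, 68.7 and 70.1 normalized counts in vehicle gonads and 143, 107, 134, 93.6 and 107 in GPI gonads. Its groups also stood apart. The log2 fold change was 0.71 ± 0.17 (SE; edgeR quasi-likelihood with Benjamini-Hochberg adjustment, adjusted p = 0.00829), and without M3 the call was lost (adjusted p = 0.055, range over alternatives 0.00439 to 0.055). Elovl1, which acts on saturated very long chains, had 133, 161, 165, 114 and 128 with vehicle and 173, 159.7, 178, 229 and 154 with GPI. Elovl2, which extends polyunsaturated chains, had 66.4, 45.3, 105, 77.7 and 103 with vehicle and 24.6, 139, 109, 155 and 110.0 with GPI. For Elovl1, M2 and M5 with GPI lay within the vehicle range, and for Elovl2, M1 with GPI lay under it while the other 4 lay above. Neither passed (edgeR quasi-likelihood with Benjamini-Hochberg adjustment, adjusted p = 0.152 and 0.512). Elovl7 ran from 5.97 to 127 in vehicle gonads and from 12.2 to 30.4 in GPI gonads and did not pass, and Elovl3 had a mean of 7.18 with vehicle and 16.7 with GPI.
The bases before the starts of Elovl5 (chr9:77917115-77917364) and Elovl6 (chr3:129532136-129532385), both on the plus strand, follow by the same choice.
Elovl5: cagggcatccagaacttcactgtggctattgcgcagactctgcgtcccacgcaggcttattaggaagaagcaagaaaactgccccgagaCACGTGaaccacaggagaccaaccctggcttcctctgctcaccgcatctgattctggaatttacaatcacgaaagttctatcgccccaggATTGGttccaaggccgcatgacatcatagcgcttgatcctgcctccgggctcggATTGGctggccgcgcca
Elovl6: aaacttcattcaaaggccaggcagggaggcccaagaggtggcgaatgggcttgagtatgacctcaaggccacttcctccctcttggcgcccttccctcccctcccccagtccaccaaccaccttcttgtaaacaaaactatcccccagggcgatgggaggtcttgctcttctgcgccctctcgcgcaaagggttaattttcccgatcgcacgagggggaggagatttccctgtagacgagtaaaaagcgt
Elovl5 carried 1 E-box 161 bases before the start and 2 NF-Y boxes at 71 and 17 bases, while none of the 4 letter strings occurred in the Elovl6 bases shown.

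The elongation cycle needs a reductase of the 3-keto group (Hsd17b12), a dehydratase (Hacd1 to Hacd3) and an enoyl reductase (Tecr). Of these 5 genes, Hacd2, Hacd3 and Tecr rose. Hacd2 had normalized counts of 471, 349.6, 379, 433 and 382 in vehicle gonads and 651, 599, 697, 694 and 629.8 in GPI gonads. Hacd3 had 679.9, 724, 763, 695 and 731 with vehicle and 864, 1109, 1151, 1226 and 1108 with GPI. For both dehydratases all GPI values were above all vehicle values. Their log2 fold changes were 0.70 ± 0.093 and 0.60 ± 0.085 (SE; edgeR quasi-likelihood with Benjamini-Hochberg adjustment, adjusted p = 9.12e-05 and 1.73e-04). Tecr had 819, 1079, 879, 809 and 876 with vehicle and 1062, 1283, 1237, 1305 and 1440.5 with GPI. The vehicle gonad of M2 was above the GPI gonad of M1, yet each pair was higher with GPI. Tecr had a log2 fold change of 0.51 ± 0.087 (SE; edgeR quasi-likelihood with Benjamini-Hochberg adjustment, adjusted p = 7.69e-04), and 10.8% of its 50-base words are shared with other transcripts. The share is 7.02% for Hacd2 and 31.1% for Hacd1, whose count is less certain, by an amount that was not measured. Hsd17b12 and Hacd1 did not pass, at log2 fold changes of 0.24 ± 0.12 and -0.095 ± 0.16. With 1 embryo left out, Hsd17b12 ran from 0.15 (without M4) to 0.31 (without M1). Hacd1 ran from -0.14 (without M3) to -0.054 (without M2).

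Of 5 desaturases, 4 rose. Scd1 and Scd2 place the first double bond in stearate and palmitate and both lie on chromosome 19. Scd2 had normalized counts of 8398, 6803, 8777, 8422 and 9609 in vehicle gonads of M1 to M5 and 10865, 13953, 13881, 16284 and 13556 in GPI gonads. All GPI gonads were above all vehicle gonads. Its log2 fold change was 0.70 ± 0.092 (SE; edgeR quasi-likelihood with Benjamini-Hochberg adjustment, adjusted p = 8.40e-05). Scd1 had 152, 237, 199, 121 and 306 with vehicle and 191, 602, 533, 942 and 911 with GPI. Among GPI gonads, that of M1 lay within the vehicle range and the other 4 were above it. Its log2 fold change was 1.54 ± 0.25 (SE), 2.91-fold (edgeR quasi-likelihood with Benjamini-Hochberg adjustment, adjusted p = 4.53e-04). In this fit it was the largest among the tested members, next to Thrsp. Thrsp was above Scd1 with DESeq2, with no filter and without M3, M4 or M5 (1.57 against 1.20 without M4). Per kilobase of longest transcript, the vehicle level was 1540.2 normalized counts for Scd2 and 42 for Scd1, and Scd2 had the highest level per kilobase of all members. The paralogs share few 50-base words with other transcripts (4.66% of Scd1 and 4.01% of Scd2). Fads1, the delta-5 desaturase of polyunsaturated chains, had 1277, 1197, 1360.1, 1398 and 1700.5 with vehicle and 1923, 2675, 2749.9, 3521 and 2638 with GPI. The groups were apart. Fads2, the delta-6 desaturase, had 258, 427, 325, 277 and 357 with vehicle and 339, 440.2, 537, 572 and 682 with GPI. The M1 gonad of the GPI group lay inside the vehicle range and the M2 pair barely differed. The log2 fold changes were 0.95 ± 0.10 and 0.63 ± 0.14 (SE; edgeR quasi-likelihood with Benjamini-Hochberg adjustment, adjusted p = 1.77e-05 and 0.00405). Fads3 did not pass, at 0.19 ± 0.15, and with 1 embryo left out it ran from 0.086 (without M2) to 0.28 (without M5).

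Acyl-CoA synthetases, which activate free fatty acids, moved in both directions. Acsl4, which prefers arachidonate, had normalized counts of 2545, 2977, 2749, 3127 and 2894 in vehicle gonads and 2768, 4894, 4477, 5594 and 4453 in GPI gonads. Again the M1 GPI gonad alone remained within the vehicle range. Acsl3, found on lipid droplets and endoplasmic reticulum, had 1649.9, 1352, 1799, 1619.6 and 1605 with vehicle and 1608, 2298, 2149.9, 2213 and 1909 with GPI. It was higher in 4 of 5 pairs and slightly lower in M1. The log2 fold changes were 0.60 ± 0.093 and 0.34 ± 0.099 (SE; edgeR quasi-likelihood with Benjamini-Hochberg adjustment, adjusted p = 3.14e-04 and 0.0238). The Acsl3 call was lost without M2, M3 or M4 (adjusted p = 0.0789, 0.0737 and 0.0937 by edgeR quasi-likelihood with Benjamini-Hochberg adjustment, range over alternatives 0.00536 to 0.0937). Acsl5, a synthetase of mitochondria and endoplasmic reticulum, was the one member called lower. It had 310.0, 269.7, 281, 307 and 338 normalized counts with vehicle and 171, 195, 202, 217 and 291 with GPI. In M5 the GPI value lay within the vehicle range, and the other 4 were below it. The log2 fold change was -0.50 ± 0.12 (SE; edgeR quasi-likelihood with Benjamini-Hochberg adjustment, adjusted p = 0.00794), lower in 5 of 5 pairs. Acsl1 and Acsl6 did not pass, at -0.048 ± 0.18 and 0.50 ± 0.31.

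The 3 regulators were Thrsp, Mlxipl and Srebf1, of which Thrsp and Mlxipl rose. Thrsp, a lipogenic nuclear protein also called Spot 14, had 11.1, 4.77, 8.93, 7.97 and 12.2 normalized counts in vehicle gonads and 34.7, 22.7, 23.8, 21 and 28.3 in GPI gonads. These are low counts, and the groups were apart. Its log2 fold change was 1.54 ± 0.38 (SE; edgeR quasi-likelihood with Benjamini-Hochberg adjustment, adjusted p = 0.00923), and it dropped out where 10 counts in every library were required. Mlxipl, which encodes ChREBP, ran from 208 to 393 in vehicle gonads and from 328 to 496 in GPI gonads, with M2 alone lower with GPI. The log2 fold change was 0.65 ± 0.16 (SE; edgeR quasi-likelihood with Benjamini-Hochberg adjustment, adjusted p = 0.00906), and the call was lost without M3 or M4 (adjusted p = 0.0618 and 0.0516, range over alternatives 5.67e-04 to 0.0618). Srebf1, which encodes SREBP-1, was 181 ± 13.8 with vehicle and 209 ± 14.1 with GPI (SD, n = 5), higher in 5 of 5 pairs, and did not pass at a log2 fold change of 0.21 ± 0.12 (edgeR quasi-likelihood with Benjamini-Hochberg adjustment, adjusted p = 0.268).

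**Figure D2:**
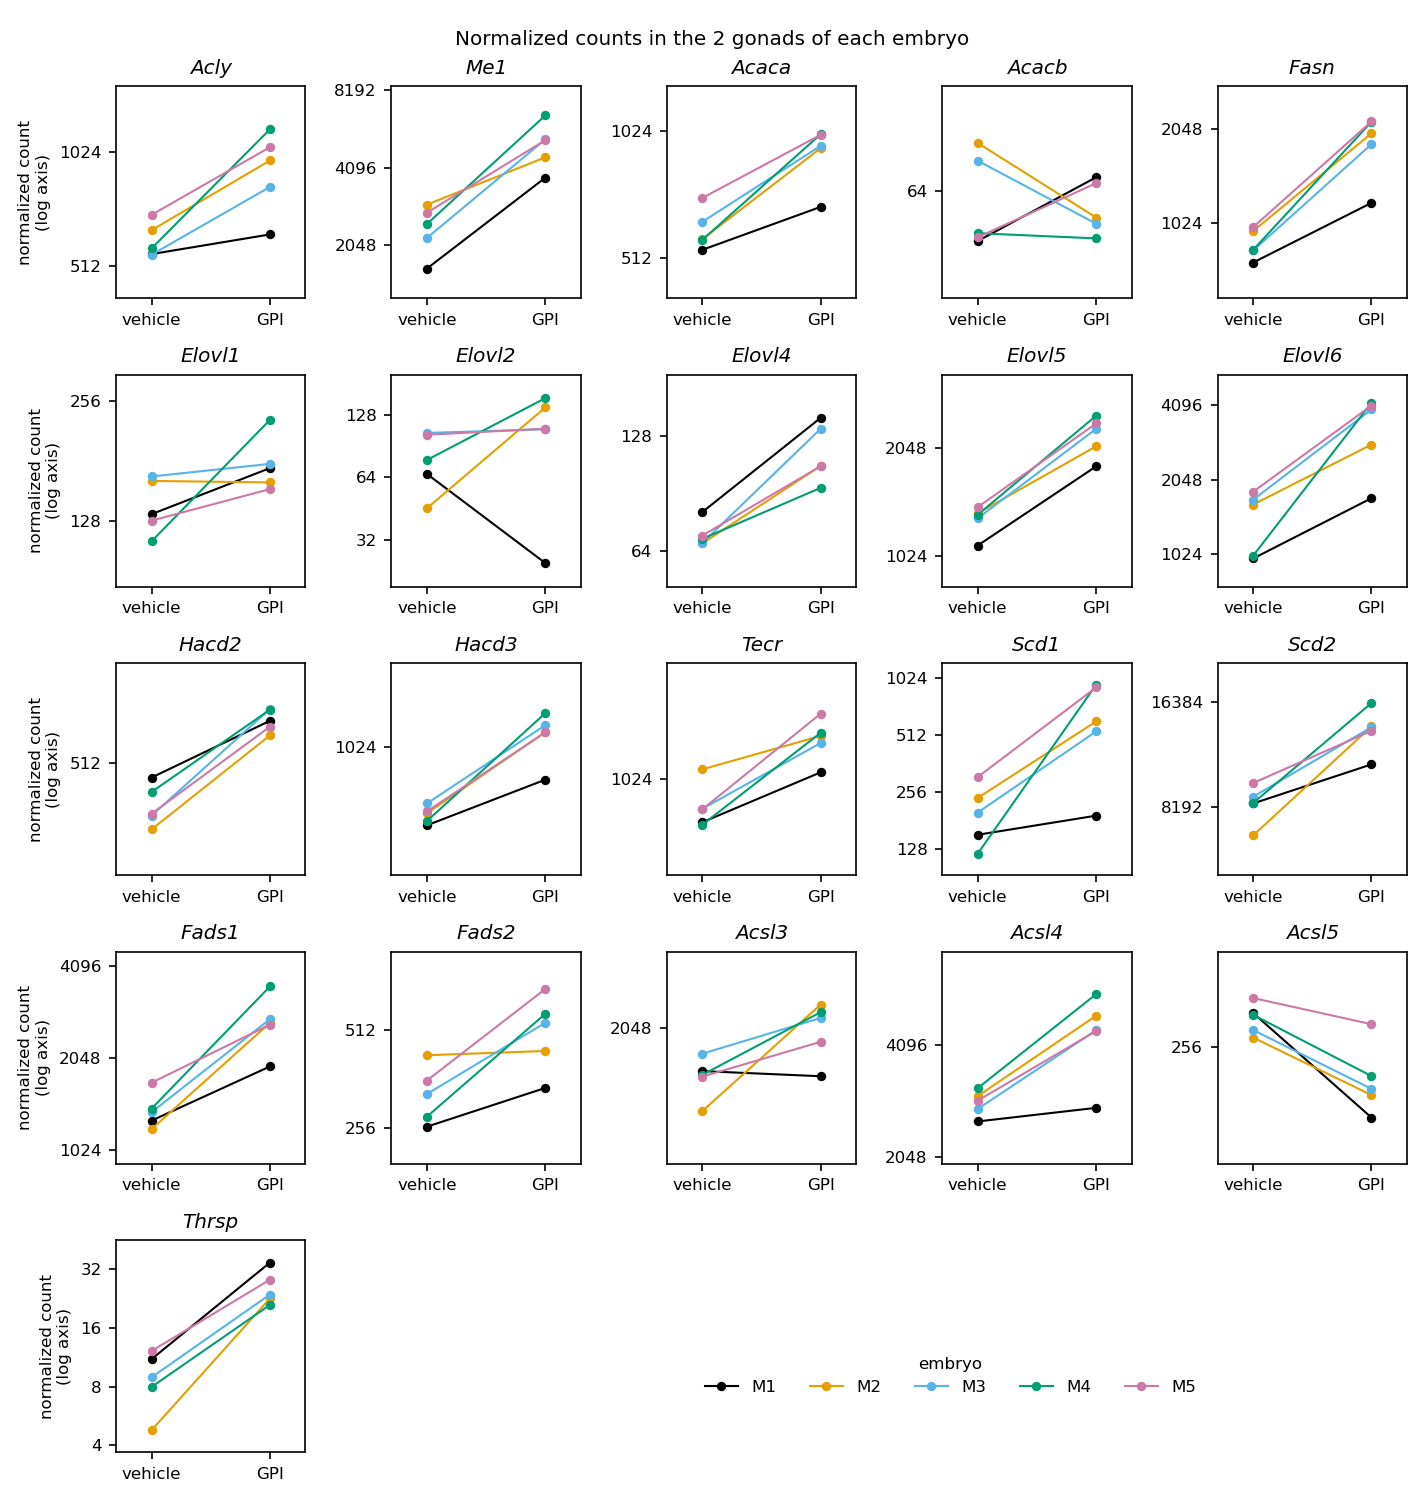
Normalized counts of 21 members in the vehicle and GPI gonad of each embryo, on a log axis whose range differs between panels; each line joins the 2 gonads of 1 embryo. Lines climb in all 5 embryos for 16 members called higher and descend in all 5 for Acsl5.

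Embryos differed in the size of the difference. Over the 31 tested members, the median log2 ratio of GPI to vehicle was 0.35, 0.61, 0.59, 0.82 and 0.59 in M1 to M5. M1 had the smallest ratio of the 5 embryos for 10 of the 18 members called higher, and M4 had the largest for 11. In 9 of those 18 members the groups did not overlap. In the other 9, the GPI gonad of M1 was within the vehicle range, and in 8 of them it was the sole such GPI gonad. The share of all called genes whose groups did not overlap was not counted, so these numbers describe the members alone. Without M1, the same 19 members were called and the median log2 fold change was 0.64. The 12 members that did not pass had 8 positive and 4 negative log2 fold changes, from -0.79 (Elovl7) to 0.50 (Acsl6). The Elovl7 value was -0.13 without M1 and -1.40 without the embryo term. Its normalized counts were 127, 5.97, 68.1, 20.9 and 9.9 in vehicle gonads and 12.3, 12.2, 30.4, 17.9 and 14.2 in GPI gonads of M1 to M5, so the vehicle gonads of M1 and M3 were the highest. Of 10 markers of mesonephros and epithelium, 6 were also higher in both of these vehicle gonads than in the other 3, namely Pax2, Pax8, Krt8, Krt18, Cdh1 and Cdh16, while Lhx1, Emx2, Upk3b and Krt19 were not. The share of all genes with this order was not counted. Pax8 had 399.7, 101, 208, 131 and 53.3 with vehicle and 166, 173, 104, 106 and 82.8 with GPI. Cdh1, which encodes E-cadherin, had 189, 59.7, 125, 20.9 and 34.3 with vehicle and 10.1, 25.9, 10.5, 2.1 and 12 with GPI. Krt8, a keratin, had 148, 13.1, 87.1, 22.9 and 17.5 with vehicle and 48.1, 53.5, 29.5, 23.1 and 22.9 with GPI. Cdh16, a cadherin of kidney epithelium, had 113, 1.19, 48, 0 and 5.33 with vehicle and 10.1, 21.1, 2.85, 0 and 4.36 with GPI. The part of such cells in the Elovl7 values was not tested.

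**Figure D3:**
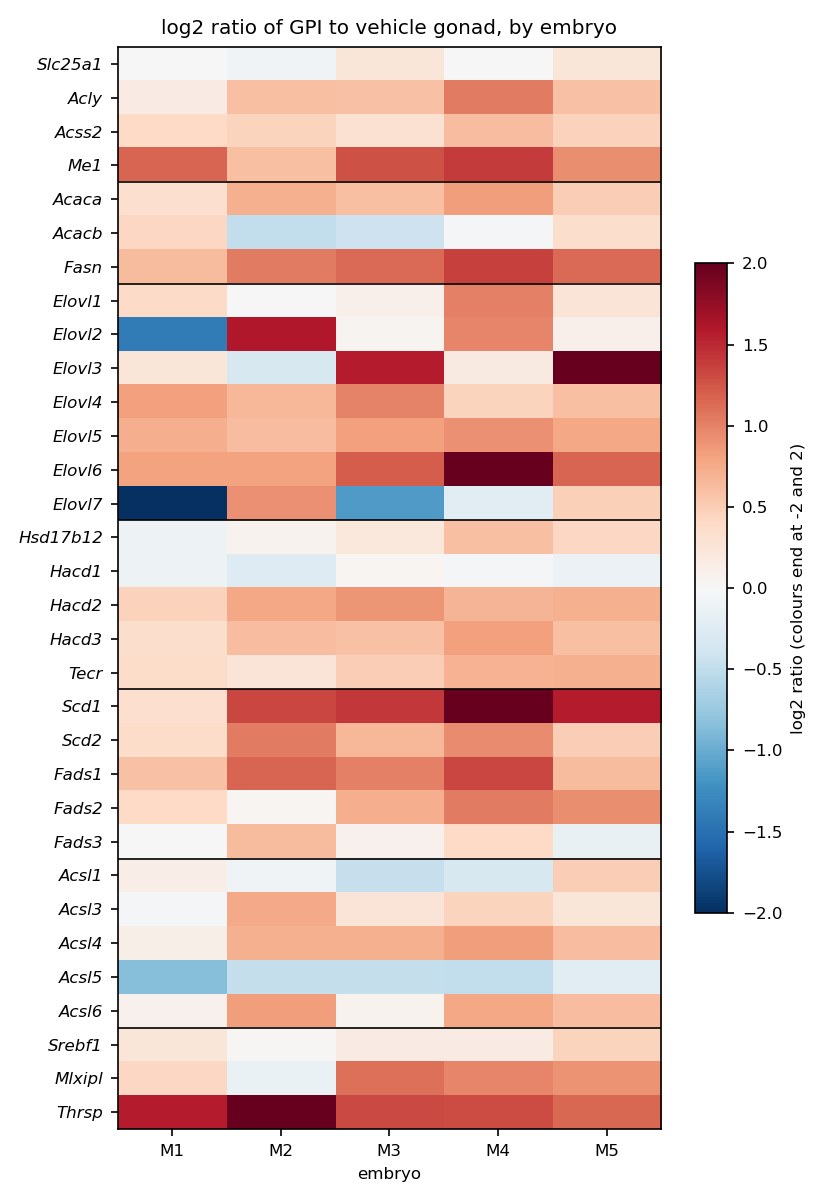
Log2 ratio of the GPI to the vehicle gonad (normalized count plus 1) for the 32 members in each of the 5 embryos, ordered by role; red is higher with GPI, blue is lower, and colours end at -2 and 2. The M1 column is paler than M4 over most called members, and Acsl5 is blue in all 5 columns.

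For 7 pairs of related enzymes, the change in the ratio was tested itself. With 5 embryos, the smallest p an exact two-sided sign-flip permutation test can give is 0.0625, so no pair could pass 0.05. Elovl6 over Elovl1 changed by 0.43, 0.82, 1.11, 1.05 and 0.90 on the log2 scale in M1 to M5, a mean of 0.86 ± 0.27 (SD, n = 5; exact permutation p = 0.0625, adjusted over 7 pairs 0.219), and was the sole ratio with 1 direction in all 5 embryos. Scd1 over Scd2 changed by -0.038, 0.30, 0.76 and 1.07 in M1, M2, M3 and M5 and most in M4, a mean of 0.82 ± 0.79 (SD, n = 5; exact permutation p = 0.125, adjusted 0.219). Acaca over Acacb changed by -0.079, 1.20, 1.01, 0.86 and 0.14, a mean of 0.63 ± 0.56 (SD, n = 5; exact permutation p = 0.125, adjusted 0.219). The embryos spread widely in both, with M1 near 0, and the mean of the Scd1 over Scd2 ratio was 0.52 without M4. The Elovl5 over Elovl2 ratio changed by 2.12, -0.98, 0.76, -0.073 and 0.67 in M1 to M5, a mean of 0.50 that was 0.095 without M1 (exact permutation over all 5, adjusted p = 0.5). The Fads1 over Fads2 ratio changed by 0.20, 1.12, 0.29, 0.29 and -0.30, a mean of 0.32 that was 0.12 without M2 (exact permutation over all 5, adjusted p = 0.365). Each of these means rested largely on 1 embryo. For Hacd2 over Hacd3 and Acsl3 over Acsl4 the mean changes were 0.11 and -0.26 (exact permutation, adjusted p = 0.35 and 0.219).

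**Figure D4:**
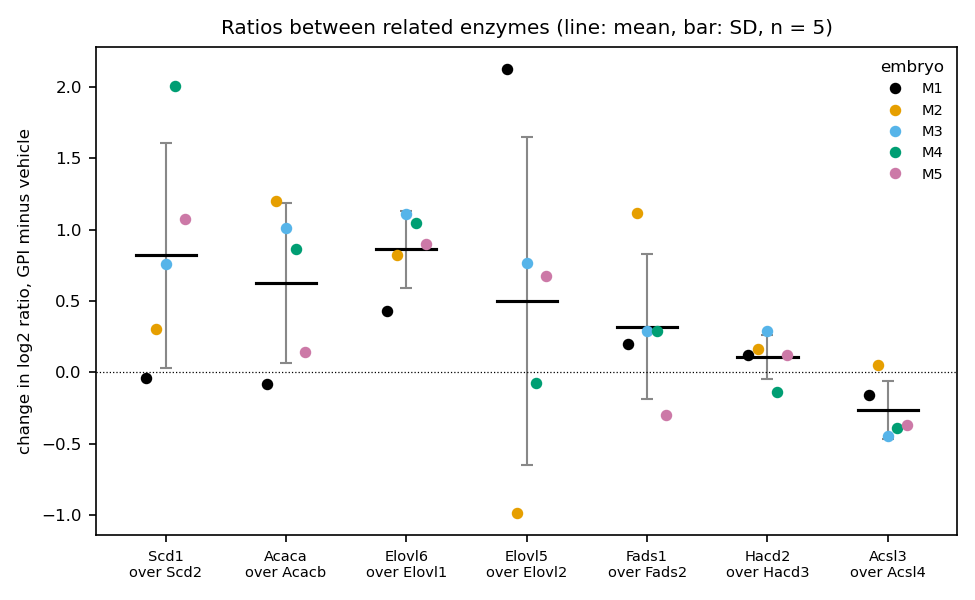
Change in the log2 ratio between related enzymes, GPI minus vehicle, in each of the 5 embryos; black lines are means and grey bars SD. Elovl6 over Elovl1 is above 0 in 5 of 5 embryos, from 0.43 to 1.11, and each of the other 6 ratios has embryos on both sides of 0.

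Promoter windows of 300 bases, 250 before to 50 after the start, were searched on both strands for 4 strings. TCACNCCAC was in 2 of 37 member windows (5.41%) and 1.24% of all 32851 windows. The 2 were a window of Acsl1, which was not called, and a window of Mlxipl. Among the 17 windows of members called higher, 1 held it. CACGTG was in 13.5% of member windows and 7.15% of all. CCAAT was in 59.5% and 37.4%, and GGGCGG in 67.6% and 35.7%. These matches are letters in a window and were not tested. Scd1, Scd2, Fads1 and Elovl3 had no window in the table.

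The rest of the pathway was followed in a separate list. Of 29 listed, 28 were in the table and 25 were tested, and 6 were called, each of them higher, at a median log2 fold change of 0.28. Scap, which escorts SREBP to the Golgi for cleavage, was 433 ± 80.9 with vehicle and 1071 ± 172 with GPI (SD, n = 5), a log2 fold change of 1.31 ± 0.12 (edgeR quasi-likelihood with Benjamini-Hochberg adjustment, adjusted p = 2.92e-06). Acsbg1, an acyl-CoA synthetase of the bubblegum family, was 226 ± 109 and 601 ± 146 (SD, n = 5), a log2 fold change of 1.51 ± 0.25 (edgeR quasi-likelihood with Benjamini-Hochberg adjustment, adjusted p = 5.45e-04). Insig1, which retains SCAP in the endoplasmic reticulum, rose by 0.80 ± 0.16 and in 4 of 5 pairs (edgeR quasi-likelihood with Benjamini-Hochberg adjustment, adjusted p = 0.00231).

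Cholesterol synthesis, the other branch of SREBP-driven lipid synthesis, had 15 of 21 genes called, each of them higher, at a median log2 fold change of 0.68. The 3 with the smallest p were Dhcr7, Fdft1 and Fdps, with log2 fold changes of 1.05 ± 0.13, 1.01 ± 0.14 and 0.99 ± 0.16 (SE; edgeR quasi-likelihood with Benjamini-Hochberg adjustment, adjusted p = 3.62e-05, 1.45e-04 and 5.39e-04). The list's median log2 ratio was -0.26, 0.71, 0.64, 1.32 and 0.85 in M1 to M5. M1 was negative, with 7 of 21 genes higher, whereas in that embryo the fatty acid members had a median of 0.35. The count called higher was 9 without M4 and 9 without M5.

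Fatty acid oxidation had 5 of 20 tested genes called higher and 1 lower, at a median log2 fold change of 0.18. Acaa2, Echs1 and Hadh, which act in the mitochondrial spiral, rose by 0.67 ± 0.084, 0.74 ± 0.11 and 0.50 ± 0.092 (SE; edgeR quasi-likelihood with Benjamini-Hochberg adjustment, adjusted p = 5.57e-05, 2.87e-04 and 0.00114). Cpt1a and Acadm were also called higher and Eci1 lower. The Cpt1a and Acadm calls were lost with total-count scaling and without M1, M3, M4 or M5, which left 3 called higher, and the Eci1 call was lost without M2, M3, M4 or M5. Without the embryo term Cpt1a was lost as well (edgeR quasi-likelihood with Benjamini-Hochberg adjustment, adjusted p = 0.0576, range over alternatives 0.00647 to 0.113).

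Fetal Leydig cells, which make steroids, had 9 of 9 tested markers called higher. Their summed normalized counts were 2126, 3916, 5342, 3036 and 6938 with vehicle and 12447, 13051, 19432, 22269 and 16539 with GPI in M1 to M5, with the groups apart. Hsd3b1 was the highest per kilobase in both groups, at 926 normalized counts per kilobase with vehicle and 2844 with GPI, followed by Cyp11a1 at 263 and 1706. Star, Cyp17a1, Fdxr and Fdx1 had log2 fold changes of 0.79, 3.90, 1.63 and 1.41. Sertoli cell markers had 8 of 10 called, each of them higher. They summed to 3722, 5852, 4399, 5548 and 6119 with vehicle and 4431, 8145, 8465, 10599 and 8133 with GPI, the M1 GPI gonad lying within the vehicle range. Aard was the highest per kilobase in both groups, and Sox9, Sox8, Mro and Aard had log2 fold changes of 0.59, 1.43, 0.89 and 0.54. The Aard call was lost without M3 and without the embryo term (the latter by edgeR quasi-likelihood with Benjamini-Hochberg adjustment, adjusted p = 0.0929, range over alternatives 9.43e-05 to 0.0929). The part of both cell types in the member values was not tested.

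Most endothelial, germ cell, macrophage and erythroid markers were called lower. Endothelial markers, of which Cdh5 was the highest per kilobase in both groups, had 10 of 10 called lower and summed to 8041, 8327, 7713, 8810.4 and 7888 with vehicle and 963, 1126, 805, 630.2 and 808 with GPI. Cdh5, Pecam1 and Flt1 fell by log2 fold changes of -3.63, -4.16 and -5.18. Every GPI sum was below every vehicle sum. Germ cell markers had 5 of 7 tested called lower. Their sums were 1713, 2906, 2116, 2754 and 1525 with vehicle and 912, 729.6, 766, 968 and 936 with GPI, and Kit, with the highest count averaged over both groups, did not pass (-0.16 ± 0.089). Kit alone had 724, 810.2, 852, 1035 and 865 with vehicle and 776, 609, 721, 924 and 826 with GPI, which was most of each GPI sum. Ddx4, Dazl, Dppa3 and Sall4 fell at log2 fold changes of -2.72, -4.62, -5.20 and -4.89. Flt1, Dazl, Dppa3 and Sall4 reached the count cutoff in every vehicle library but not in every GPI library, so they passed the filter through the vehicle gonads. Where 10 counts in every library were required, 1 germ cell marker and 5 macrophage markers were called lower. Macrophage markers had 8 of 9 tested called lower and summed to 1054, 705, 824, 775 and 774 with vehicle and 444, 395, 362, 210.4 and 252 with GPI. Csf1r, Ptprc and C1qb had log2 fold changes of -2.22, -1.85 and -1.91, and Cd68, the highest of the list per kilobase in both groups, -0.76, a call lost without the replicate block (edgeR quasi-likelihood with Benjamini-Hochberg adjustment, adjusted p = 0.0571, range over alternatives 0.00231 to 0.0571). Erythroid markers had 7 of 9 tested called lower and summed to 2085, 2719, 5236, 4887 and 4159.8 with vehicle and 1859, 1004, 957, 1073 and 2486 with GPI. Hbb-y was the highest per kilobase in both groups, at a log2 fold change of -0.98, and Hbb-bt and Hbb-bs had log2 fold changes of -3.84 and -4.13. Their part in the member values was not tested.

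Adipocyte and lipid-loaded cell markers did not move together. Of 6 tested, 1 was called higher and 1 lower, and their sums were 2308, 2718, 1959.7, 2242 and 1921 with vehicle and 2005, 2211, 2459.9, 2658 and 1907 with GPI. Lep had 0 counts in all 10 libraries, Cidec in all 5 GPI libraries and 4 of 5 vehicle libraries, and Adipoq in 4 of 5 libraries of each group. Plin1, a lipid droplet protein, was detected, with a mean of 27.5 with vehicle and 34.4 with GPI. It had 3.32, 72.8, 13.4, 9.96 and 38.1 in vehicle gonads of M1 to M5, so that of M2 raised the vehicle mean. Its GPI counts were 22.4, 26.8, 17.1, 54.7 and 51.2. Plin1 was higher in 4 of 5 pairs and did not pass, at a log2 fold change of 0.68 ± 0.52. Cidea was detected at 31.1 and 25.8. Fabp4, which endothelium also expresses, had a mean of 355 with vehicle and 6.75 with GPI, and was called lower. It reached the count cutoff in 5 vehicle libraries and 1 GPI library, so it passed the filter through the vehicle gonads, and was not tested where 10 counts in every library were required. Pparg rose by 0.93 ± 0.30, and Lpl, the highest of the list per kilobase, was at 0.27 ± 0.095 and did not pass (edgeR quasi-likelihood with Benjamini-Hochberg adjustment, adjusted p = 0.041 and 0.0546). The Pparg call was lost with total-count scaling and without M1, M2, M3 or M5, and Lpl passed with DESeq2, limma-voom, no filter and without M1 or M2. Mesonephros and coelomic epithelium markers had 2 of 7 tested called lower, and summed to 2509, 1807, 2112, 1579.8 and 1327 with vehicle and 1522, 1553, 1234, 1092 and 1387 with GPI. Emx2, the highest of the list per kilobase, had a log2 fold change of -0.73. Cdh1 had a mean of 85.9 with vehicle and 12.1 with GPI and reached the cutoff in 5 vehicle and 2 GPI libraries, so it also passed through the vehicle gonads and was not tested where 10 counts in every library were required, which left 1 marker called lower. Upk3b did not pass at 0.23, and Pax2 was too low to test, at 28.8, 9.55, 11.2, 0.996 and 0 with vehicle and 1.12, 29.2, 7.61, 3.16 and 7.63 with GPI.

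**Figure D5:**
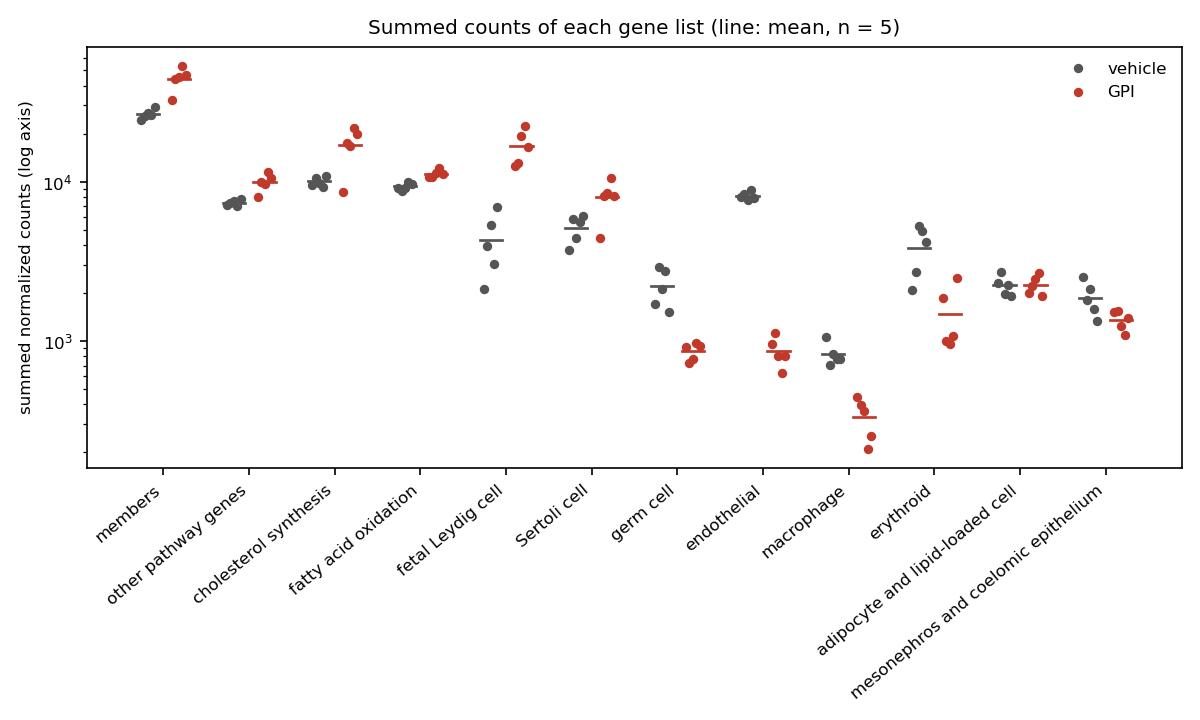
Summed normalized counts of the 12 gene lists in each gonad on a log axis; points are gonads, lines are means (n = 5), grey is vehicle and red is GPI. The 32 members and the Leydig markers lie higher with GPI in all gonads, and the endothelial markers lie lower.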

How the data were processed

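RNA was measured in 10 cultured testes. The authors aligned the reads to mm10 with STAR (2.5 in the submitters' processing notes) and assigned them to RefSeq genes with featureCounts of Subread 1.5.0-p1 without regard to strand, and their raw counts were used as deposited. Genes were filtered with filterByExpr (minimum count 10, minimum total 15), leaving 13941 genes and removing 10529. Tests used edgeR 4.0.16 in R 4.3.3 (quasi-likelihood, TMM scaling, embryo and treatment in the design) and p-values adjusted across the tested genes by the Benjamini-Hochberg method and held to a nominal FDR of 0.05. On simulated counts the share of false calls was above the nominal FDR, so calls with an adjusted p near 0.05 are less certain. Standard errors are the size of the log2 fold change over the square root of F. Normalized counts are raw counts scaled from each effective library size to the mean one, 12320317. Ratios between enzymes used a pseudocount of 1. Levels per kilobase used the longest GENCODE M21 transcript. Promoters came from RefSeq on GRCm38.p6. Because libraries were amplified, precision was read from the spread between embryos.

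The labels give both gonads of an embryo 1 number. Deviations from the treatment means correlated at 0.155, -0.04, 0.03, 0.082 and 0.073 within M1 to M5, with a mean of 0.06, and at -0.015 between embryos. As a check for a library deposited more than once, counts of libraries within a treatment were compared, and chi-square over degrees of freedom ran from 6.42 to 27.81. Values in every sample are given for called members with 1 direction in 5 of 5 embryos and for both genes of each ratio. Of each other list, the 3 genes with the smallest p are named, and of marker lists also the first and the one with the highest count over both groups. For 1 gene of the erythroid list the result is not reported here. Among other lists, Cpt1a, Acadm, Eci1, Cyp11a1, Cidec, Lep, Plin1, Cidea, Pax8, Krt8, Cdh16, Krt18, Lhx1 and Krt19 were chosen after their values were seen. Members and lists were chosen with earlier results of these data known. The other lists were other pathway genes, cholesterol synthesis, fatty acid oxidation, and markers of fetal Leydig, Sertoli, germ, endothelial, macrophage, erythroid, adipocyte and mesonephric cells. Alternatives were DESeq2 1.42.0, limma-voom (limma 3.58.1), no embryo term, DESeq2 size factors, total counts, no filter, at least 10 counts in every library, each embryo left out in turn and, for ratios, pseudocounts of 0.5 and 5.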

Additional observations from a re-analysis of the deposited data

Results flagged for a closer look

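In 13 of 208 groups of 5 libraries, 1 library stood far from the other 4; chance flags about 1 in 20 groups. Among members, Acaca was low in the GPI gonad of M1 (677 normalized counts against 932 to 1006), and Elovl3 was high in the GPI gonad of M5 (40.3 against 6.49 to 15.2). In vehicle gonads, Elovl4 was high in M1 (80.8), Hsd17b12 low in M4 (273), and Tecr and Mlxipl high in M2 (1079 and 393). The log2 ratio of Elovl5 to Elovl2 was high in the GPI gonad of M1 (6.15 against 3.88 to 4.43). Among other genes, Fabp4 was high in the vehicle gonad of M2 (432), Emx2 low in that of M5 (791) and Pax2 high in the GPI gonad of M2 (29.2). Cidec was above 0 in 1 vehicle gonad (M3, 1.12). Adipoq was above 0 in 1 vehicle gonad (M5, 0.762) and 1 GPI gonad (M4, 2.1).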

How the results depend on the processing

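Across the 12 alternatives, members called higher ranged from 15 to 19, 1 member was called lower in each, and the median log2 fold change of the members ran from 0.49 to 0.64. Genes called numbered 3198 and 2311 to 3082 with 1 embryo left out. With no replicate block, which ignores the pairing, 3108 genes were called, the same 19 members passed, and among other genes named Aard, Cd68 and Cpt1a were lost. Of the 19 called members, 16 passed under every alternative that tested them. Elovl4, Acsl3 and Mlxipl were lost only with an embryo left out, which leaves fewer samples, and Thrsp was not tested where 10 counts in every library were required. Signs reversed for 2 members that were not called: with 1 embryo left out, Acacb ran from -0.17 to 0.082, positive without M2 and M3, and Acsl1 from -0.18 to 0.044, positive without M3 and M4. Krt8, also not called, ran from -0.82 to 0.12, positive without M1 and M3. The cause was not tested. Total-count scaling called 1238 genes higher and 1972 lower. The paired ratios could not pass 0.05, so they say nothing about stability. Elovl3, below the filter on low counts, was tested with no filter and without M1 or M2 and was not called there, and Elovl7 and Thrsp did not reach the count cutoff in every vehicle library.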
